A study of Mus musculus with 10 samples.

Results

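The Fc gamma receptors and the proteins that carry their signal were followed through the latent period after status epilepticus (SE). The genes were chosen by name, as the activating receptors *Fcgr1*, *Fcgr3* and *Fcgr4*, the inhibitory receptor *Fcgr2b*, the adaptor *Fcer1g* and the kinase *Syk*. All 6 were found among the 15900 genes of the CAGE table, 5 under their own symbol and *Syk* under its synonym *Sykb*, and all 6 passed the filter on low values that left 15851 genes for testing. Cap analysis of gene expression (CAGE) sequences the capped 5′ ends of RNA, and levels are given as CPM, tag counts scaled to a common library total. Each transcript yields tags at its start only, so that CPM can be set side by side between genes without a correction for length.

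Whole hippocampi came from young adult male ICR (CD-1) mice, with 2 mice in each of 5 groups. The pre-SE mice are labelled untreated, and in the study's methods the controls received saline in place of pilocarpine (PILO). In the SE 6 h and SE 2 days groups, SE was induced by PILO after methylscopolamine and was ended with diazepam, and the hippocampus was taken 6 h or 2 days later. The SE + LEV 6 h and SE + LEV 2 days groups were handled in the same way and also received levetiracetam (LEV), an anti-epileptic drug, by mouth after SE. The comparisons ask how these genes change after SE and whether LEV alters that change. The libraries were made from bulk tissue, in which a change in the number of cells of a type and a change in RNA per cell cannot be told apart.

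Fc gamma receptors bind the constant part of immunoglobulin G and let myeloid cells, in the brain mainly microglia and border macrophages, take up antibody-coated material. The activating receptors have little signalling capacity of their own and associate with the common gamma chain encoded by *Fcer1g*, whose tyrosine motif (ITAM) is phosphorylated by Src family kinases and then recruits SYK. *Fcgr2b* carries an inhibitory motif (ITIM) instead and recruits phosphatases that oppose this signal.

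Of these genes, 4 lie close together on chromosome 1 (mm9, the build of the deposited values). *Fcgr2b* (ENSMUSG00000026656) spans 172890689 to 172906678 on the minus strand, *Fcgr4* (ENSMUSG00000059089) 172949051 to 172959892 on the plus strand and *Fcgr3* (ENSMUSG00000059498) 172981300 to 172995066 on the minus strand, with gaps of 42.4 and 21.4 kb and 0 protein-coding genes in between. *Fcer1g* (ENSMUSG00000058715) follows at 173159703 to 173164496 on the minus strand, 164.6 kb from *Fcgr3* and with 7 protein-coding genes between them. *Fcgr1* (ENSMUSG00000015947) lies apart on chromosome 3, from 96086832 to 96098179 on the minus strand, and *Syk* (ENSMUSG00000021457) on chromosome 13, from 52678542 to 52744161 on the plus strand. *Fcgr4* overlaps a U1 snRNA annotated on its own strand from 172958096 to 172958260. *Fcgr3* and *Fcgr2b* transcripts share an identical run of 129 bases, but their first 150 bases share no run longer than 10, and CAGE tags come from the transcript start.

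Because the 6 genes moved together at 2 days, the promoters of the 4 receptors and of *Fcer1g* are shown, from 150 bases before to 30 bases after the start that RefSeq gives in GRCm38.p6, read 5′ to 3′ along the gene. Capitals mark matches to GAGGAA, a sequence of sites for PU.1, on either strand (TTCCTC on the other). They also mark GAS, TTCNNNGAA, the motif of STAT factors, which reads the same on both strands. Shorter ETS cores such as GGAA were not searched for and stay in lower case outside these matches. A window without capitals can therefore still hold them.
Fcgr1, chr3:96293940-96294119, minus strand: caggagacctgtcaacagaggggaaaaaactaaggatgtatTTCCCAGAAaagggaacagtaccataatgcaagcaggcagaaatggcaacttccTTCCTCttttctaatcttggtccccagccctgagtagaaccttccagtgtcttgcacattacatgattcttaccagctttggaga
Fcgr3, chr1:171059365-171059544, minus strand: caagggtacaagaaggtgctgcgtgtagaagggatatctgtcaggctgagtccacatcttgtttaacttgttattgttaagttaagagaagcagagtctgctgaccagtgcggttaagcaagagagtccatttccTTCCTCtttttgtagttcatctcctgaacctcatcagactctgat
Fcgr4, chr1:171018776-171018955, plus strand: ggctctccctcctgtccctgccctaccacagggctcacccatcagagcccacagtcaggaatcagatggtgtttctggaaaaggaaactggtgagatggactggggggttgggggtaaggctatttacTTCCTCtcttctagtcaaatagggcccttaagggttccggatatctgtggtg
Fcgr2b, chr1:170976042-170976221, minus strand: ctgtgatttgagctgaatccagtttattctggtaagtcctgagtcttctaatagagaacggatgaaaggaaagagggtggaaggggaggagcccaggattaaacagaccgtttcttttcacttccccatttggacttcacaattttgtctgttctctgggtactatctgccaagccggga
Fcer1g, chr1:171234320-171234499, minus strand: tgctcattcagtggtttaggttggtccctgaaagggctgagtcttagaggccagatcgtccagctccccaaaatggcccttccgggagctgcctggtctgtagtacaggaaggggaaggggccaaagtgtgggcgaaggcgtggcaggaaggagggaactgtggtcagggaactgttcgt

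In the full RefSeq windows, from 250 bases before to 50 bases after the start, GAGGAA or its reverse complement was found in at least 1 window of 4 of the 6 genes (*Fcgr1*, *Fcgr3*, *Fcgr4* and *Syk*), of which *Fcgr3* and *Syk* have 2 windows each. It was found in 28.3% of all 32851 windows of that length. The first base of the match stood at position −55 in *Fcgr1*, −22 in *Fcgr4* and −15 in *Fcgr3*, or −6 from a second *Fcgr3* start. GAS was found in 1 of the 6, at −109 in *Fcgr1*, and in 8.3% of all windows. AP-1 (TGACTCA), CRE (TGACGTCA) and TATA box (TATAAA) motifs were found in 0 of the 6 genes on either strand, against 5.2%, 1.79% and 13.6% of all windows. These letters are a description of the windows and show no binding.

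The libraries held 10540698 to 51710969 tags on the listed genes. The detection limit was set at 3 tags, which equalled 0.058 CPM in the deepest library and 0.285 CPM in the shallowest. All levels of *Fcgr1*, *Fcgr3*, *Fcgr2b* and *Fcer1g* were well above this limit. The pre-SE levels of *Fcgr4* rested on 2 and 4 tags and those of *Syk* on 2 and 12. In the 6 h mice, *Fcgr4* rested on 6 to 14 tags and *Syk* on 3 to 8. Mouse 2 of the SE + LEV 2 days group stood apart from the 3 other mice sampled at 2 days in having the lowest *Fcgr1*, *Fcgr4* and *Fcer1g* levels. Its *Fcgr2b* level (4.39 CPM) was also the lowest, but close to that of SE 2 days mouse 1 (4.66 CPM). This SE + LEV 2 days mouse is therefore given by its own values throughout. The differences are logFC values, fitted with limma to log2(CPM + 0.1) over all 10 libraries, and genes with a Benjamini-Hochberg adjusted p of at most 0.05 were called. This scale understates the changes of low genes.

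At 2 days after SE, all 6 genes were higher than in pre-SE mice. They were called in 6 of 6 cases, where 5.07% of all genes tested were called higher, and in all 6 both SE 2 days mice lay above both pre-SE mice, as in 26.3% of all genes. At 6 h this held for 5 of the 6, all but *Fcgr1*, and for 18.6% of all genes. The largest logFC were those of *Fcgr4* (5.69) and *Fcgr1* (3.88) and the smallest that of *Fcgr3* (2.12). At 6 h after SE, 0 of the 6 genes were called by limma, where 2.76% of all genes were called higher and 0.202% lower. Of the 6, 2 had an unadjusted p under 0.05, both in the higher direction. Of all 15851 genes, 1460 were higher and 1349 lower at that threshold.

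**Figure D1:**
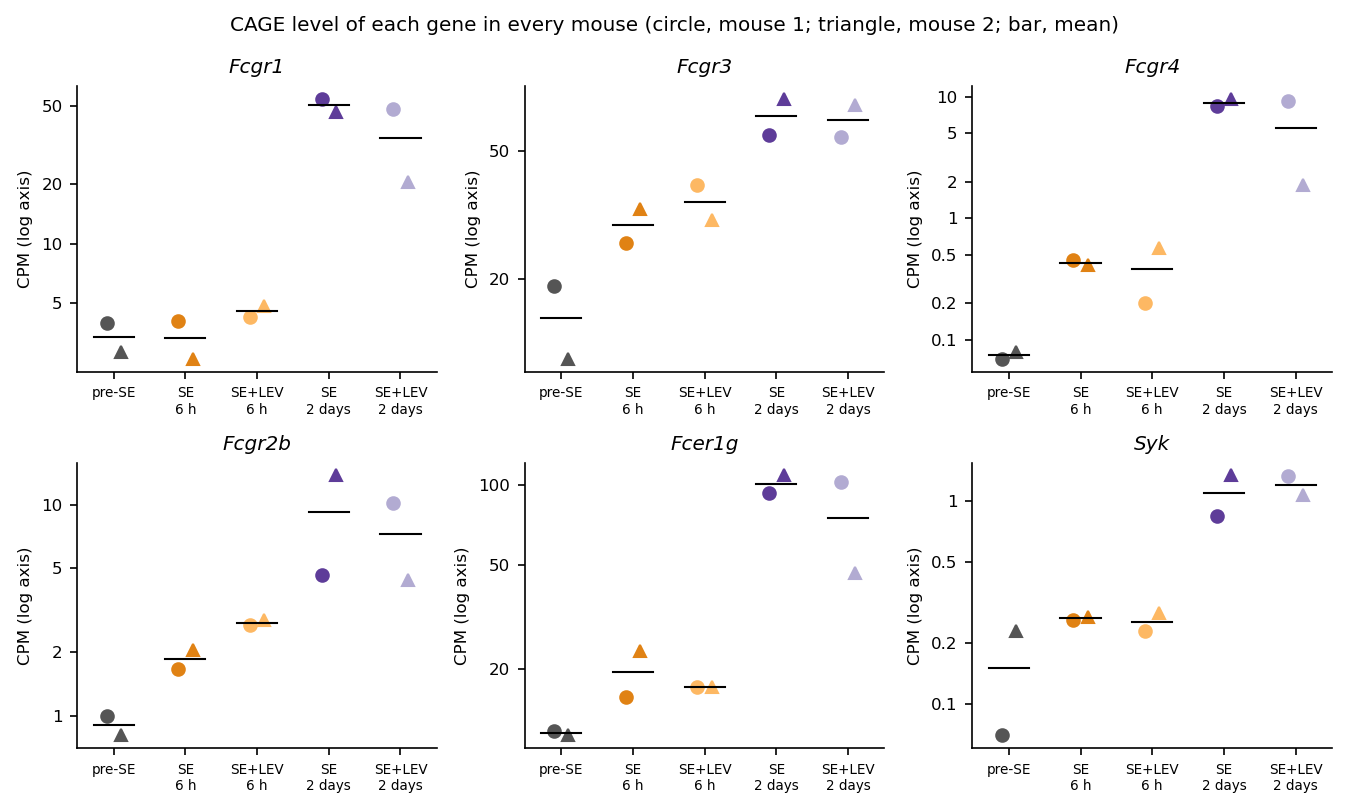
CPM on a log axis, with a range of its own in each panel, for each gene in the 5 groups, with a circle for mouse 1, a triangle for mouse 2 and a bar for the mean of the 2 mice. In all 6 genes both SE 2 days mice lie above both pre-SE mice, and mouse 2 of SE + LEV 2 days lies at 20.5 CPM for *Fcgr1* and 1.89 CPM for *Fcgr4*, below the other mice at 2 days.

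*Fcgr1* encodes the high-affinity receptor, which can bind monomeric immunoglobulin G. Pre-SE mice had levels of 3.93 and 2.8 CPM and SE 6 h mice of 4.04 and 2.6 CPM. In the SE 2 days mice the level was 54.1 and 46.4 CPM. The pre-SE and SE 6 h mice overlapped, and the SE 2 days mice stood far above both groups. Against pre-SE, the logFC was −0.03 at 6 h (limma adjusted p = 0.98, standard error 0.42) and 3.88 at 2 days (limma adjusted p = 0.0013, standard error 0.42). Its sign at 6 h changed with the scaling of the libraries (0.09 after median-of-ratios rescaling).

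*Fcgr3* encodes a low-affinity activating receptor for immune complexes and was the most abundant receptor before SE. Its level was 19 and 11.2 CPM in the pre-SE mice, 25.9 and 33 CPM in the SE 6 h mice and 56.1 and 72.9 CPM in the SE 2 days mice. The 3 groups did not overlap, with the SE 6 h mice between the others. At 6 h the logFC of 1 (95% interval 0.32 to 1.68) was not called (limma adjusted p = 0.13, unadjusted p = 0.0084). At 2 days the logFC of 2.12 (standard error 0.31) was called (limma adjusted p = 0.0036).

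*Fcgr4* encodes the activating receptor that binds IgG2a and IgG2b complexes with intermediate affinity. It was barely detected in the pre-SE mice, at 0.07 and 0.08 CPM, and stood at 0.45 and 0.41 CPM in the SE 6 h mice. In the SE 2 days mice it reached 8.31 and 9.55 CPM. The 3 groups did not overlap. At 6 h the logFC of 1.6 (95% interval 0.12 to 3.07) was not called (limma adjusted p = 0.25, unadjusted p = 0.036), and at 2 days the logFC of 5.69 (standard error 0.66) was called (limma adjusted p = 0.0014). Because the pre-SE level is near the limit of detection, the logFC at 2 days depended on the pseudocount and ran from 3.2 to 6.72 over the alternatives. With the tags of each group pooled, 396 tags at 2 days against 6 before SE gave a ratio of 120 after scaling to the library totals, with a 95% counting interval of 54.5 to 328 that leaves out the spread between mice.

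*Fcgr2b*, the inhibitory receptor, was at 1 and 0.81 CPM in the pre-SE mice, 1.67 and 2.06 CPM in the SE 6 h mice and 4.66 and 13.8 CPM in the SE 2 days mice. The groups did not overlap, but the ratio between the SE 2 days mice was larger than in any other of the 6 genes. The logFC was 0.97 at 6 h (95% interval −0.24 to 2.17, limma adjusted p = 0.38) and 3.02 at 2 days (limma adjusted p = 0.0098, standard error 0.54). The call at 2 days was lost without pre-SE mouse 1, pre-SE mouse 2 or SE 2 days mouse 2, with logFC of 3.16, 2.88 and 2.25 and limma adjusted p of 0.053, 0.062 and 0.1.

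*Fcer1g*, the common gamma chain, was at 11.7 and 11.3 CPM in the pre-SE mice, 15.7 and 23.6 CPM in the SE 6 h mice and 93.3 and 109 CPM in the SE 2 days mice. At 2 days it was the most abundant of the 6 genes in both SE mice, while before SE its level lay within the range of *Fcgr3*. The logFC was 0.74 at 6 h (95% interval −0.05 to 1.53, limma adjusted p = 0.31) and 3.12 at 2 days (limma adjusted p = 0.0014, standard error 0.36). Per CPM of the 3 activating receptors summed, *Fcer1g* stood at 0.511 and 0.798 before SE and at 0.787 and 0.846 after 2 days, so that the groups overlapped in this ratio.

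*Syk*, the kinase recruited to the phosphorylated gamma chain, had low levels throughout. It was at 0.07 and 0.23 CPM in the pre-SE mice, 0.26 and 0.27 CPM in the SE 6 h mice and 0.85 and 1.34 CPM in the SE 2 days mice. Both pre-SE mice were below all mice sampled after SE except mouse 1 of SE + LEV 6 h, which was also at 0.23 CPM. The logFC was 0.62 at 6 h (95% interval −0.41 to 1.66, limma adjusted p = 0.52) and 2.3 at 2 days (limma adjusted p = 0.018, standard error 0.46). The call at 2 days was lost without pre-SE mouse 1 or SE 2 days mouse 2, with logFC of 1.83 and 2 and a limma adjusted p of 0.18 in both cases. The pooled ratio at 2 days was 6.22 (95% counting interval 3.37 to 12.2, 48 tags against 14).

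Between 6 h and 2 days after SE, 3 of the 6 genes were called higher, where 3.14% of all genes were called higher. These were *Fcgr1* with a logFC of 3.91 (limma adjusted p = 0.0024), *Fcgr4* with 4.09 (limma adjusted p = 0.009) and *Fcer1g* with 2.38 (limma adjusted p = 0.0069). *Fcgr3* (1.12), *Fcgr2b* (2.05) and *Syk* (1.68) were not called, with limma adjusted p of 0.073, 0.067 and 0.077, although both SE 2 days mice lay above both SE 6 h mice in all 6 genes, as in 31% of all genes. The call of *Fcgr4* was lost without any 1 of the 4 mice (limma adjusted p of 0.06 to 0.071). That of *Fcer1g* was lost without SE 6 h mouse 1 or SE 2 days mouse 2 (limma adjusted p of 0.057 and 0.062).

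**Figure D2:**
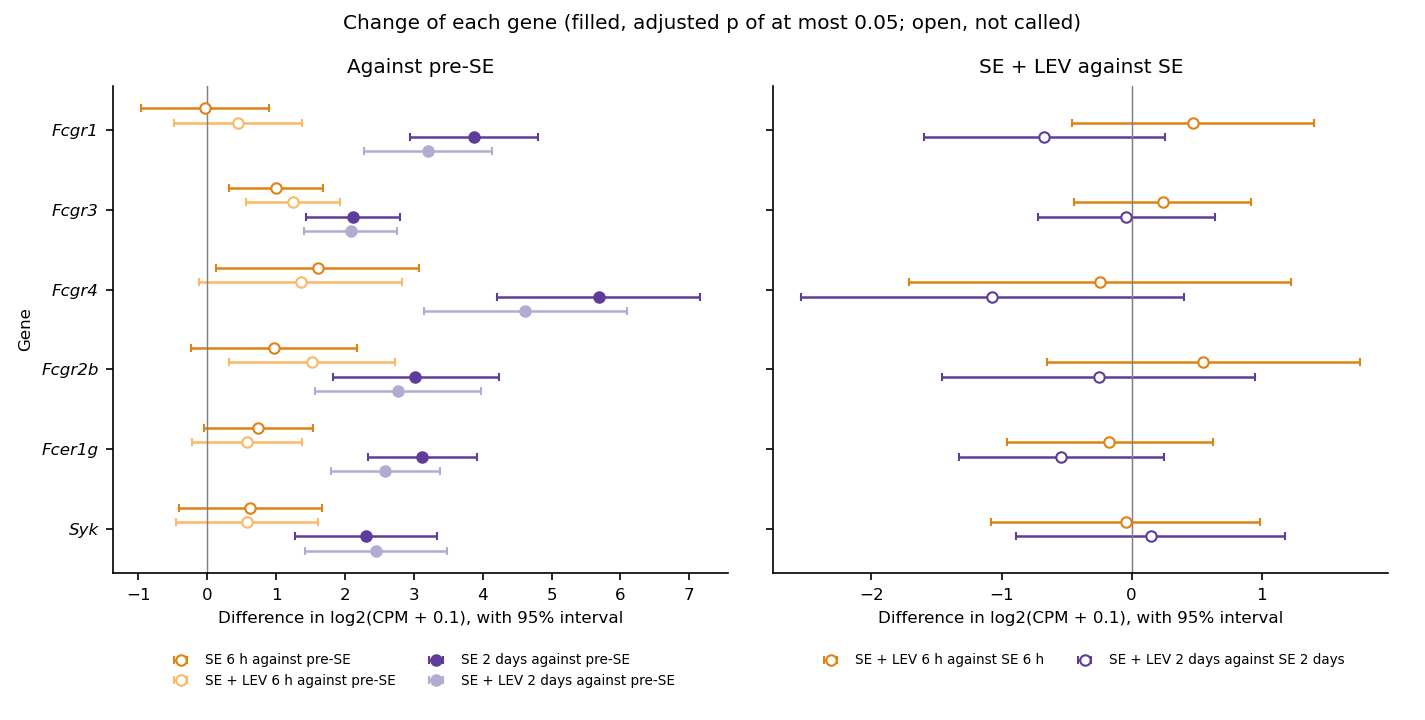
Differences in log2(CPM + 0.1) with 95% intervals from limma, for each gene against pre-SE at left and for SE + LEV against SE at right, with filled points for called differences. The intervals at 2 days against pre-SE all lie above 0, from a lowest bound of 1.27 for *Syk*, and those of SE + LEV against SE all include 0.

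The shares of the receptors are given as a description, since a share cannot differ in a test of 2 mice against 2 below an exact p of 0.333. Before SE, *Fcgr3* made up 79.1% and 75.3% of the summed CPM of the 4 receptors and *Fcgr1* 16.4% and 18.8%. At 6 h after SE, the share of *Fcgr3* was 80.8% and 86.7% and that of *Fcgr1* 12.6% and 6.82%. At 2 days, the share of *Fcgr3* was 45.5% and 51.1%, that of *Fcgr1* 43.9% and 32.5%, and that of *Fcgr4* 6.75% and 6.7%, up from 0.292% and 0.537% before SE. The sum of the 4 receptors was 24 and 14.9 CPM in the pre-SE mice, 32.1 and 38.1 CPM in the SE 6 h mice and 123 and 143 CPM in the SE 2 days mice.

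The balance of the activating receptors against *Fcgr2b* overlapped between the pre-SE, SE 6 h and SE 2 days mice. Their summed CPM was 23 and 17.4 times that of *Fcgr2b* in the pre-SE mice, 18.2 and 17.5 times in the SE 6 h mice and 25.4 and 9.36 times in the SE 2 days mice. The log2 ratio differed by −0.16 at 6 h and by −0.37 at 2 days from pre-SE (two-sided exact permutation p = 1 for both). Taken singly, the log2 ratio to *Fcgr2b* at 2 days differed from pre-SE by 0.76 for *Fcgr1* (exact permutation p = 1), 3.74 for *Fcgr4* and −1.02 for *Fcgr3* (exact permutation p = 0.333 for both).

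**Figure D3:**
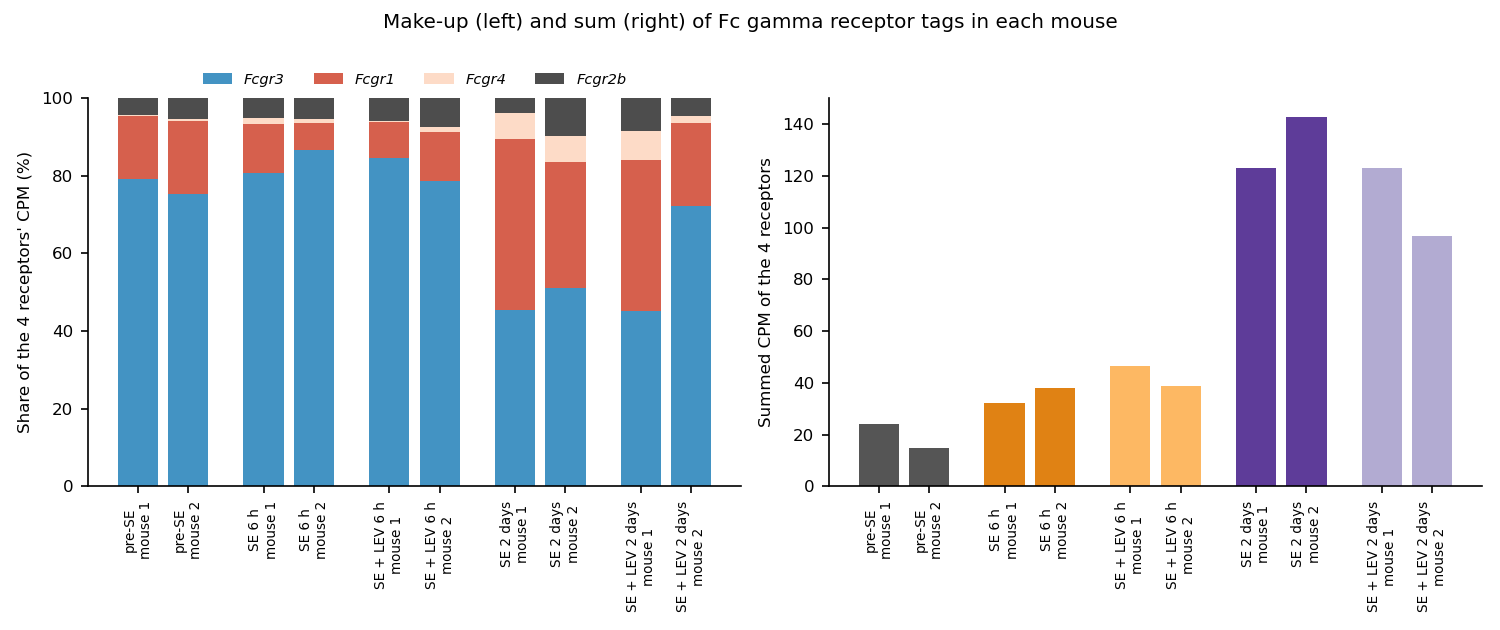
Left, share in percent of each receptor in the summed CPM of the 4 Fc gamma receptors in each mouse, and right, that sum in CPM on an axis from 0. The share of *Fcgr3* falls from between 75.3% and 86.7% in the pre-SE and SE 6 h mice to 45.5% and 51.1% in the SE 2 days mice, while mouse 2 of SE + LEV 2 days is at 72.3%.

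No difference between SE + LEV and SE mice was called in any of the 6 genes at either time. At 6 h, 0 of the 6 were called by limma against SE 6 h, and 0 had an unadjusted p under 0.05. Across all genes 0% were called higher and 0.0126% lower. *Fcgr1* was at 4.25 and 4.84 CPM and *Fcgr2b* at 2.69 and 2.85 CPM in the SE + LEV 6 h mice, both above the SE 6 h mice, as in 16.1% of all genes. Their logFC were 0.47 (95% interval −0.46 to 1.4) and 0.55 (95% interval −0.65 to 1.76). In the other 4 genes the SE + LEV 6 h mice overlapped with the SE 6 h mice. *Fcgr3* was at 39.2 and 30.5 CPM, *Fcgr4* at 0.2 and 0.57 CPM, *Fcer1g* at 17.1 and 17.2 CPM and *Syk* at 0.23 and 0.28 CPM, with logFC of 0.24, −0.24, −0.17 and −0.04. The limma adjusted p was 1 for all 6.

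At 2 days, 0 of the 6 genes were called by limma against SE 2 days and 0 had an unadjusted p under 0.05, and 0% of all genes were called in either direction. The groups overlapped in all 6 genes, as they did in most genes. Both SE + LEV 2 days mice lay above both SE 2 days mice in 15.2% of all genes and below both in 12.2%. The 2 SE + LEV 2 days mice were unlike each other in 4 of them. *Fcgr1* was at 48 CPM in mouse 1 and 20.5 CPM in mouse 2, *Fcgr4* at 9.17 and 1.89 CPM, *Fcgr2b* at 10.2 and 4.39 CPM and *Fcer1g* at 103 and 46.7 CPM. In *Fcgr1*, *Fcgr4* and *Fcer1g*, mouse 1 lay within the range of the SE 2 days mice and mouse 2 below it. *Fcgr3* was at 55.3 and 70 CPM and *Syk* at 1.33 and 1.07 CPM, both close to the SE 2 days mice.

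The LEV logFC at 2 days was −0.67 for *Fcgr1* (95% interval −1.6 to 0.26), −1.07 for *Fcgr4* (−2.54 to 0.4) and −0.54 for *Fcer1g* (−1.33 to 0.25). It was −0.25 for *Fcgr2b* (−1.46 to 0.95), −0.04 for *Fcgr3* (−0.72 to 0.64) and 0.15 for *Syk* (−0.89 to 1.18). These intervals all include falls as well as rises, so that they do not show that LEV left the levels as they were. Without mouse 2 of SE + LEV 2 days, the logFC were −0.06 for *Fcgr1*, 0.04 for *Fcgr4*, 0.03 for *Fcer1g* and 0.35 for *Fcgr2b*. Without mouse 1 they were −1.28, −2.18, −1.11 and −0.86, and none was called. The LEV effect at 2 days differed from that at 6 h by −1.14 in *Fcgr1* (95% interval −2.46 to 0.17), and limma called 0 of the 6 differences, with 0 at an unadjusted p under 0.05. Of all 15851 genes, 251 were higher and 126 lower at that threshold. By the study's methods, the SE + LEV 2 days mice had received more doses of LEV than the SE + LEV 6 h mice. Time and number of doses cannot be told apart in this difference.

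In SE + LEV mice against pre-SE mice, which are the same pre-SE mice as above, 0 of the 6 genes were called at 6 h, where 0.315% of all genes were called higher and 2 of the 6, *Fcgr3* and *Fcgr2b*, had an unadjusted p under 0.05. Of all 15851 genes, 876 were higher and 611 lower at that unadjusted threshold. At 2 days 6 of the 6 were called higher, where 2.83% of all genes were called higher. The logFC at 2 days were 3.2 for *Fcgr1*, 2.08 for *Fcgr3*, 4.62 for *Fcgr4*, 2.77 for *Fcgr2b*, 2.58 for *Fcer1g* and 2.45 for *Syk*, with limma adjusted p of 0.0041, 0.0066, 0.006, 0.023, 0.0052 and 0.019. All 6 calls rested on the spread shared with the other groups. When only the pre-SE and SE + LEV 2 days mice were fitted, 0 of the 6 and 0 of all genes were called, and the adjusted p of the 6 ran from 0.073 to 0.12. The calls of *Fcgr2b* and *Syk* were also lost without pre-SE mouse 1 (limma adjusted p = 0.11 and 0.21) or SE + LEV 2 days mouse 1 (0.22 and 0.17), and that of *Fcgr2b* without pre-SE mouse 2 (0.13). Against SE + LEV 6 h, *Fcgr1* (2.77), *Fcgr4* (3.26) and *Fcer1g* (2.01) were called higher at 2 days (limma adjusted p = 0.0095, 0.036 and 0.018), where 2.06% of all genes were called higher, and all 3 calls were lost without either SE + LEV 6 h mouse or without SE + LEV 2 days mouse 1 (limma adjusted p of 0.055 to 0.27).

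The make-up of the receptors followed the same split between the SE + LEV 2 days mice. In mouse 1, *Fcgr3* made up 45.1% and *Fcgr1* 39.1% of the 4 receptors, close to the SE 2 days mice. In mouse 2, *Fcgr3* made up 72.3% and *Fcgr1* 21.2%, close to the pre-SE mice, although the sum of the receptors was 96.8 CPM in this mouse. The activating receptors stood at 11 and 21 times *Fcgr2b* in these mice, overlapping with SE 2 days (log2 difference −0.02, exact permutation p = 1). At 6 h they stood at 16.2 and 12.6 times *Fcgr2b* in the SE + LEV mice, below both SE 6 h mice (log2 difference −0.32) and both pre-SE mice (−0.48), with an exact permutation p of 0.333 for both, the smallest that 2 mice against 2 allow.

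Ordered by their mean level, the groups ran from pre-SE over the 6 h groups to the 2 days groups in *Fcgr3*, *Fcgr4*, *Fcgr2b*, *Fcer1g* and *Syk*, and in these genes the 6 h groups overlapped with each other except in *Fcgr2b*. In *Fcgr1*, SE 6 h had the lowest mean (3.32 CPM) and overlapped with pre-SE (3.36 CPM). In all 6 genes the lowest mouse at 2 days lay above the highest mouse sampled earlier, and SE 2 days overlapped with SE + LEV 2 days. How many of all genes separated the mice at 2 days from all earlier mice was not counted, so this is a description only. Across the 10 libraries, log2(CPM + 0.1) correlated most closely between *Fcgr4* and *Fcer1g* (Pearson r = 0.98) and least between *Fcgr1* and *Fcgr3* (r = 0.8). These values describe libraries that share their groups and are given without a test.

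Beyond the receptors, 47 of 55 listed genes of the pathway were in the table and were tested, in 6 roles. At 2 days after SE, 20 of the 47 were called higher and 0 lower (5.07% and 0.593% of all genes), with a median logFC of 1.24 beside −0.03 over all genes. This count was 6 to 12 when any 1 of the 4 mice was left out. Among the 5 Src family kinases, which phosphorylate the ITAM, 3 were called higher, among them the myeloid kinases *Fgr* (3.25) and *Lyn* (2.04), while the broadly expressed *Fyn* and *Src* had logFC of −0.31 and −0.27. Among 19 scaffolds and effectors downstream of SYK, 4 were called higher, namely the membrane scaffold *Lat2* (3.85), the exchange factor *Vav1* (2.41), the adaptor *Lcp2* (1.8) and the kinase *Tec* (1.64).

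Of the 7 actin regulators that act in phagocytosis, 4 were called higher at 2 days. These were the GTPase *Rac2* (2.84), the Arp2/3 subunit *Arpc1b* (2.25), *Was* (2.21), which activates the Arp2/3 complex, and the exchange factor *Dock2* (1.74), whereas *Rac1* and *Cdc42* had logFC of −0.09 and 0.14. Of the 8 inhibitors, 4 were called higher, namely the phosphatases *Ptpn6* (2.69) and *Inpp5d* (1.47), the latter encoding SHIP1, which FCGR2B recruits, and the adaptors *Dok3* (1.93) and *Dok1* (1.68). The call of *Dok3* was lost with a pseudocount of 0.01, a filter at 1 CPM, median-of-ratios rescaling, a replicate block or only the groups compared. Activators and inhibitors of the pathway were thus both among the genes called higher. Of 5 genes in the table from the list named other ITAM adaptors and coupled receptors, 4 were called higher, namely the receptors *Cd300lf* (4.7), *Clec7a* (3.24) and *Trem2* (2.28) and the adaptor *Tyrobp* (2.33). The list name does not describe how each receptor signals. The call of *Cd300lf* was lost with pseudocounts of 0.5 and 1, median-of-ratios rescaling or no trend, and that of *Clec7a* with 0.01. *Cd300lf* was at 0.21 and 0.02 CPM in the pre-SE mice and already at 2.95 and 6.71 CPM in the SE 6 h mice. Of 3 other immunoglobulin receptors and relatives, only the microglial Fc receptor-like gene *Fcrls* (2.72) was called, and the neonatal receptor *Fcgrt* had a logFC of 0.17.

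At 6 h after SE, limma called 0 of the 47 pathway genes in either direction (2.76% of all genes were called higher and 0.202% lower), with a median logFC of 0.05 beside −0.13 over all genes. Of the 47, 7 had an unadjusted p under 0.05, all of them higher. Of all 15851 genes, 1460 were higher and 1349 lower at that threshold. Between SE + LEV and SE mice, limma called 0 of the 47 at 6 h (1 had an unadjusted p under 0.05 and was lower) and 0 at 2 days (0 had an unadjusted p under 0.05). At that threshold, 184 of all genes were higher and 542 lower at 6 h, and 208 higher and 220 lower at 2 days. The LEV logFC at 2 days of the 47 genes ran from −0.68 to 0.58 with a median of 0.03, beside 0.04 over all genes. In SE + LEV 2 days against pre-SE mice, 17 were called higher and 0 lower, where 2.83% of all genes were called higher and 0.0189% lower. These 17 calls were lost when only the groups compared were fitted, where 0 of all genes were called.

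**Figure D4:**
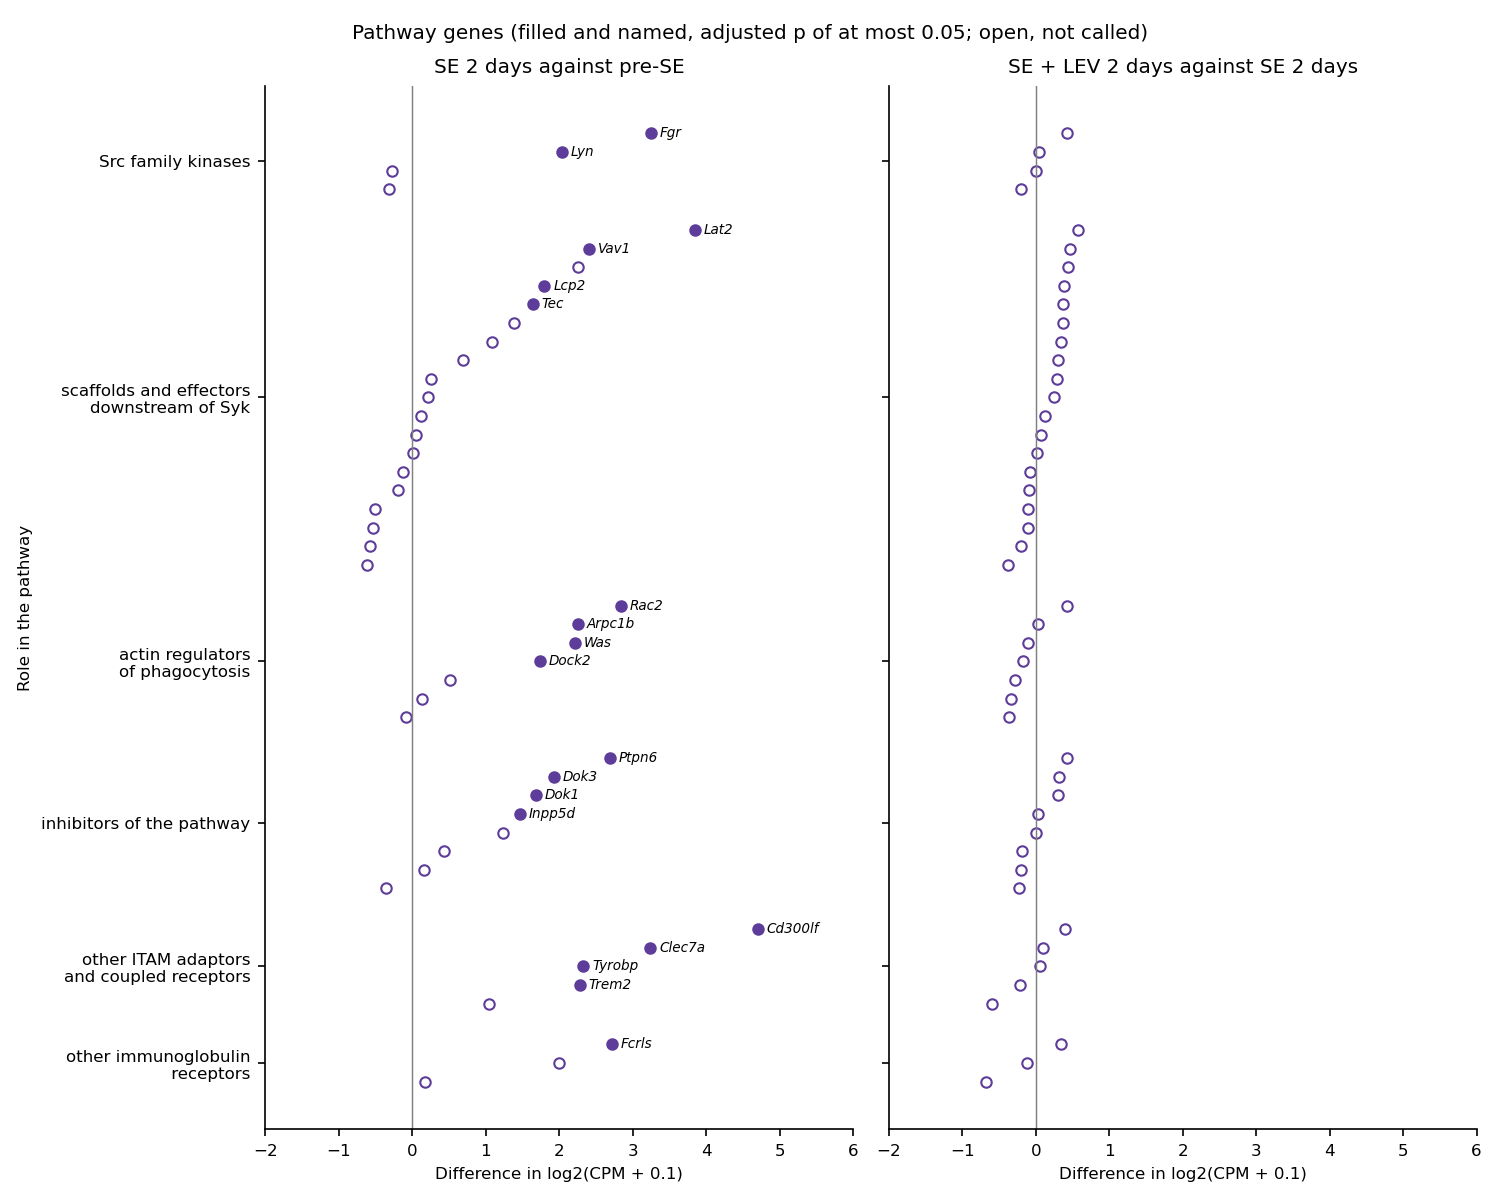
Differences in log2(CPM + 0.1) of 46 pathway genes tested, each on a line of its own within its role and ordered by size in each panel, for SE 2 days against pre-SE at left and SE + LEV 2 days against SE 2 days at right. The 19 called genes among them are filled and named at left, and at right 0 are called and the values lie between −0.68 and 0.58.

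Markers of the cells that carry these receptors were also among the genes called higher at 2 days. All 10 microglial markers were in the table, and their summed level was 393 and 455 CPM in the pre-SE mice, 302 and 282 CPM in the SE 6 h mice and 910 and 1060 CPM in the SE 2 days mice. It was 308 and 290 CPM in the SE + LEV 6 h mice and 1210 and 994 CPM in the SE + LEV 2 days mice. Limma called 3 of the 10 higher at 2 days, among them *Aif1* (2.28) and *Olfml3* (2.31), and 0 lower. The defining microglial genes *P2ry12* (−0.93) and *Sall1* (−0.14) were not called. Per CPM of this sum, the 4 receptors stood at 0.0611 and 0.0327 in the pre-SE mice, 0.106 and 0.135 in the SE 6 h mice, 0.151 and 0.134 in the SE + LEV 6 h mice, 0.135 and 0.134 in the SE 2 days mice and 0.101 and 0.0973 in the SE + LEV 2 days mice. This ratio was thus above both pre-SE mice already at 6 h, when the marker sum was below them. At 6 h after SE, limma called 2 of the 10 microglial markers lower, *Tmem119* (−2.5, adjusted p = 0.0048) and *P2ry12* (−2.51, adjusted p = 0.012), so that the sum that the ratio divides by moved as well. In this ratio the SE + LEV 6 h mice overlapped with the SE 6 h mice, and the SE + LEV 2 days mice lay below the SE 2 days mice. With 2 mice against 2 such a separation has an exact permutation p of 0.333.

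Of 8 monocyte markers, 5 were in the table, and among those not listed in it were the defining genes *Ccr2* and *Ly6c2*. The summed level of the 5 was 33.1 and 43.8 CPM in the pre-SE mice, 38.9 to 51.1 CPM in the mice of both 6 h groups, 104 and 265 CPM in the SE 2 days mice and 205 and 57.8 CPM in mice 1 and 2 of SE + LEV 2 days. Mouse 2, with the lower *Fcgr1*, *Fcgr4*, *Fcgr2b* and *Fcer1g*, thus also had the lowest monocyte marker sum of the 4 mice at 2 days, while its microglial sum (994 CPM) lay between those of the SE 2 days mice. *Fn1* made up most of the monocyte sum in SE 2 days mouse 2 (161 CPM) and was at 20.8 CPM in this mouse. The low sum did not hold for each marker, since *Plac8* was at 2.96 CPM in this mouse and 2.24 CPM in SE 2 days mouse 2, and *Vcan* at 17.3 CPM and 16.9 CPM in SE 2 days mouse 1. At 2 days 2 of the 5, *Plac8* (4.12) and *Lyz2* (3.35), were called higher. Of 6 border macrophage markers 5 were listed, with a sum of 4.09 to 7.01 CPM before SE, 9.18 to 14.5 CPM in the mice of both 6 h groups and 12.9 to 16.2 CPM in the SE 2 days mice, and of these *Ms4a7* (2.69) was called by limma at 2 days and 0 at 6 h after SE. At 6 h, 2 of the 5 were higher at an unadjusted p under 0.05, as were 1460 of all 15851 genes. Of 8 neutrophil markers 3 were listed, and their sum was 0.59 to 1.62 CPM before SE and 1.18 to 4.87 CPM in the SE 2 days mice. It was higher at 6 h, with 6.7 and 6.23 CPM in the SE 6 h mice and 5.02 and 5.98 CPM in the SE + LEV 6 h mice. Limma called *Mpo* (4.26) higher at 6 h after SE and 0 of the 3 at 2 days. None of the 5 markers each of B cells, of T and NK cells and of mast cells was listed, which are cells that use *Fcgr2b*, *Fcer1g* or *Syk* as well. The neuronal markers summed to 4740 to 6270 CPM before SE and 3420 to 3730 CPM in the SE 2 days mice. Limma called 0 of these 5 markers at 2 days after SE, and *Rbfox3*, *Slc17a7* and *Gad1* overlapped with the pre-SE mice. The part of these cell types in the changes of the receptors was not tested.

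**Figure D5:**
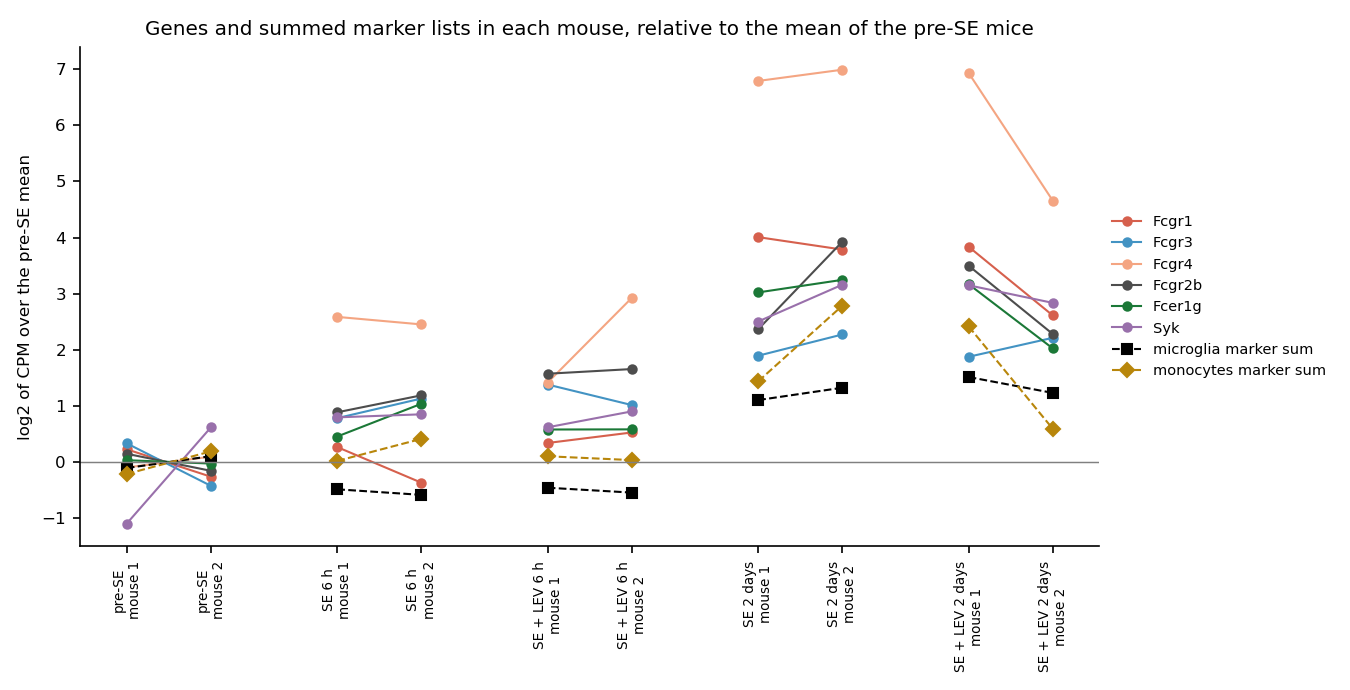
Log2 of the CPM over the mean of the pre-SE mice in each mouse, for the 6 genes (circles) and for the summed microglial (squares) and monocyte (diamonds) markers, with lines joining the 2 mice of a group. At 2 days all 6 genes lie above the microglial sum in every mouse, and mouse 2 of SE + LEV 2 days has both the lowest monocyte sum and the lowest *Fcgr4* of the 4 mice at 2 days.

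The 3 genes whose log2(CPM + 0.1) followed each gene most closely over the 10 libraries are given as a description. For *Fcgr1* they were *Cd52* (Pearson r = 0.988), *Cst7* and *BC024582* (0.987 for both), and for *Fcer1g* they were the tetraspanins *Cd63* and *Cd151* (0.99 for both) and the chemokine *Cxcl16* (0.989). For *Fcgr4* they were the major vault protein gene *Mvp* (0.987), *Col16a1* (0.986) and *Tmem106a* (0.985). The values for *Fcgr3* were lower, with *Cmklr1* (0.95), the microglial nucleotide receptor *P2ry6* (0.948) and *Galntl2* (0.946). For *Fcgr2b* they were *Cyb5r3* (0.962), *Mmp19* (0.96) and *Sgpl1* (0.958). For *Syk* they were *Sfpi1* (0.986), which encodes PU.1, *Kif18b* (0.984) and *S100a6* (0.983).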

How the data were processed

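Per the labels and the study's methods, CAGE tags of 10 libraries were mapped to mm9 with BWA 0.7.17 and, for the rest, HISAT2 2.0.5, clustered with RECLU, and deposited by the authors as CPM per gene and mouse. Nothing read here states how tag clusters were assigned to genes, whether strand was used, or a sequencing batch, and 0 columns were left out. Library totals (10540698 to 51710969 tags) were recovered from the steps of the CPM values, of which 100% were whole tags within rounding to 0.01 CPM. Because 1 tag was worth only 0.0193 to 0.0949 CPM, at least 95% of the values up to 20 tags lay within 0.1 tag of a whole number in 3 of the 10 libraries (36.4% to 100% in all 10), so tag numbers, detection limits and pooled ratios rest on totals that are estimates. Intervals on tags cover counting error only.

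The values were tested with limma 3.58.1 (R 4.3.3) on log2(CPM + 0.1) with 5 group means, a mean-variance trend and two-sided tests, over the 15851 genes that reached 0.1 CPM in 2 or more libraries, after checks on simulated data. Nothing states that replicate numbers mark a litter, batch or day, so they were not paired. The limma p-values rest on a spread between mice that was pooled over the 5 groups and drawn toward the mean-variance trend. Annotation of mm9 gave positions, and RefSeq (GRCm38.p6) gave promoters for all 6 genes. The 6 genes and all lists were chosen with earlier results of these data known, and some list genes are not reported here by name. Named pathway genes were up to 4 per role by size of logFC among those called at 2 days or 6 h, besides uncalled genes named for contrast after their values were seen. Alternatives were other pseudocounts, filters and scalings, a replicate block, no trend, only the groups compared and each mouse left out. Figures were drawn with matplotlib 3.10.9.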

Additional observations from a re-analysis of the deposited data

How the results depend on the processing

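With 2 mice a group, low tag counts of *Fcgr4* and *Syk* before SE and the spread of the SE + LEV 2 days mice limit these results. The 6 calls of SE 2 days against pre-SE kept their direction and threshold under every alternative except some with 1 mouse left out. Count tests planned on recovered tags were not run, because the rounding of the CPM was too coarse for a separate check of the tags, which 3 of the 10 libraries passed. Same-numbered mice had correlations of deviations of 0.34 (SE 6 h and pre-SE), 0.06 (SE 2 days and pre-SE), 0.15 (SE + LEV 6 h and SE 6 h), −0.18 (SE + LEV 2 days and SE 2 days) and −0.44 (SE + LEV 2 days and pre-SE), so the numbers were not taken as pairs.

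The replicate block ended 1 call of the 6 genes, *Fcgr4* in SE + LEV 2 days against SE + LEV 6 h (limma adjusted p = 0.061), which median-of-ratios rescaling (0.052) and a pseudocount of 1 (0.071) ended too. A pseudocount of 1 ended that of *Fcgr2b* in SE + LEV 2 days against pre-SE (0.053). *Syk* at 2 days against 6 h was called with pseudocounts of 0.5 and 1 and without the trend, at 0.043, 0.042 and 0.037 in SE mice and 0.041, 0.041 and 0.032 in SE + LEV mice. Genes lower in SE + LEV 6 h against SE 6 h (2) numbered 0 with the block, 0, 8 and 9 with pseudocounts of 0.01, 0.5 and 1, 4 with median-of-ratios rescaling, 1 without the trend and 0 with only the groups compared. Genes higher in SE + LEV 2 days against SE 2 days (0) numbered 1 without the trend. Genes higher in SE + LEV 6 h against pre-SE (50) numbered 26 and 14 with pseudocounts of 0.5 and 1, 30 without the trend and 14 with only the groups compared, and genes lower (1) numbered 3 and 0 with pseudocounts of 0.01 and 1 and 2 with only the groups compared. In SE + LEV 2 days against pre-SE, only the groups compared gave 0 of the 6 genes (6), 0 of all genes higher (448) and 0 lower (3), and genes lower numbered 6 and 6 with pseudocounts of 0.5 and 1, 5 with the block and 25 with crossed numbers, a block chosen after seeing the data. In SE + LEV 2 days against SE + LEV 6 h, only the groups compared gave 0 of the 6 genes (3), 96 genes higher (327) and 1 lower (12). The difference in LEV effects between the times had 0 genes higher, and 1, 2 and 2 with pseudocounts of 0.5 and 1 and without the trend. The pathway list at 6 h after SE had 0 genes higher, and 1 with the block and with only the groups compared (*Cd300lf*) and 1 without the trend (*Dok2*). The log2 ratio to *Fcgr2b* was −1.08, 0.76 and −0.09 for *Fcgr1* alone and 1.48, 3.74 and −0.93 for *Fcgr4* alone, in SE 6 h and SE 2 days against pre-SE and SE + LEV 6 h against SE 6 h.

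With 1 mouse left out, genes called higher and lower numbered 106 to 184 and 2 to 10 (437 and 32 with all mice) in SE 6 h against pre-SE, and 246 to 603 and 3 to 190 (803 and 94) in SE 2 days against pre-SE, where 6 to 12 pathway genes (20) were called. They numbered 0 to 2 and 0 to 8 in SE + LEV 6 h against SE 6 h, 0 and 0 to 2 in SE + LEV 2 days against SE 2 days, 0 to 16 and 0 in SE + LEV 6 h against pre-SE and 107 to 619 and 1 to 19 in SE + LEV 2 days against pre-SE. SE 2 days against SE 6 h had 117 to 146 and 36 to 45 (498 and 176), with 1 to 2 of the 6 genes (3), and SE + LEV 2 days against SE + LEV 6 h had 42 to 447 and 0 to 35, with 0 to 3 of the 6 genes (3).

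No called member changed sign. Uncalled ones did, given as the range with 1 mouse left out. In SE 6 h against pre-SE, *Fcgr1* ran from −0.34 to 0.28, and was at 0.09 after rescaling. In SE + LEV 6 h against SE 6 h, *Fcgr4* ran from −0.82 to 0.34, *Fcer1g* from −0.46 to 0.13 and *Syk* from −0.15 to 0.06. In SE + LEV 2 days against SE 2 days, *Fcgr3* ran from −0.23 to 0.15, *Fcgr4* from −2.18 to 0.04, *Fcgr2b* from −1.03 to 0.52, *Fcer1g* from −1.11 to 0.03 and *Syk* from −0.15 to 0.45. In the difference of LEV effects, *Fcgr4* ran from −1.94 to 0.28, *Fcer1g* from −0.94 to 0.2 and *Syk* from −0.11 to 0.49. The causes were not tested.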

Other observations

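Mouse 2 of SE + LEV 2 days, which had the lowest *Fcgr1*, *Fcgr4*, *Fcgr2b* and *Fcer1g* of the mice at 2 days, differed from the other 3 in both directions among the microglial markers. *P2ry12*, a nucleotide receptor of resting microglia, was at 52.7 CPM in this mouse and at 16.9 to 20.4 CPM in the other 3. *Siglech* was at 23.9 CPM against 3.1 to 8.86 CPM, and *Gpr34* at 44.6 CPM against 22 to 26.1 CPM. *Tmem119* was at 23.3 CPM against 30.8 to 43.5 CPM and *Olfml3* at 24.4 CPM against 30.6 to 46.9 CPM. Among the monocyte markers, *Lyz2* was at 16.7 CPM against 30.1 to 70.8 CPM and *Fn1* at 20.8 CPM against 51.9 to 161 CPM, while *Plac8* (2.96 CPM) and *Vcan* (17.3 CPM) lay within the range of the other 3. These genes were picked after their values were seen, and 1 mouse allows no test.

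The neutrophil markers *S100a8* and *S100a9*, which encode calprotectin, were at 0.21 and 0.81 CPM and at 0.38 and 0.79 CPM in the pre-SE mice. In the SE 6 h mice they were at 1.44 and 2.4 CPM and at 1.86 and 2.67 CPM. In the SE + LEV 6 h mice they were at 2.29 and 2.85 CPM and at 2.66 and 2.85 CPM. They were not called in SE 6 h against pre-SE (limma adjusted p = 0.19 and 0.16). The other listed neutrophil marker, *Mpo*, was called there (logFC 4.26, limma adjusted p = 0.012). It was at 0 and 0.02 CPM before SE, 3.4 and 1.16 CPM in SE 6 h and 0.07 and 0.28 CPM in SE + LEV 6 h.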
